A study of Mus musculus with 8 samples.

Results

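The genes described here encode structural proteins of lipid rafts and caveolae. They are raftlin (Rftn1), the flotillins (Flot1 and Flot2), the caveolins (Cav1 and Cav2) and the cavins (Cavin1, Cavin2 and Cavin3, formerly Ptrf, Sdpr and Prkcdbp). Members were the probe sets whose RefSeq transcript maps to one of these symbols, and all 8 genes were found among the 15653 named genes on the arrays. They are measured by 9 of the 22523 probe sets that are not Affymetrix controls. Since the 2 probe sets of Flot2 held identical values, these give 8 of 18172 distinct value profiles. Rftn1 was selected on these same arrays, because the study chose it by its difference between Ind-8 cells and both other lines. Its values are therefore given as a description with no test, and counts of members refer to the other 7 genes.

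Lipid rafts are small, cholesterol- and sphingolipid-rich domains of the plasma membrane that gather receptors, lipid-anchored kinases and GPI-anchored proteins. Caveolae are flask-shaped invaginations of such membrane, abundant in fibroblasts, endothelium, adipocytes and muscle, whose caveolins insert into the membrane and whose cavins form a coat around it from the cytoplasm. Flotillins assemble into caveola-independent microdomains that take part in endocytosis, and raftlin is a lipid-anchored protein first described in the rafts of B cells.

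The arrays compared 3 cloned lines of mouse fibroblasts, each kept for 48 h in medium with 65 µM ZnCl2 and 5 µg/ml puromycin. Ind-8 cells (asymmetric self-renewal, ASYM) are p53-null cells that carry a wild-type p53 cDNA under a metallothionein promoter, which zinc switches on. Con-3 cells (symmetric self-renewal, SYM) are p53-null and carry the vector without the cDNA in the methods of the study, whereas the labels name them as the line from which Ind-8 came. Descended from Ind-8, the tI-3 cells (p53SYM) keep the zinc-inducible p53 and express a type II inosine monophosphate dehydrogenase (IMPDH II) cDNA constitutively, and their medium also held G418. Independent RNA preparations gave 3 arrays of Ind-8, 3 of Con-3 and 2 of tI-3. With a single clone behind every state, state and line cannot be told apart. The authors deposited RMA values on the log2 scale, in which a difference of 1 is a doubling of signal, and the small number of arrays limits the precision. The comparison of Ind-8 with Con-3 asks what accompanies p53 expression and asymmetric self-renewal together. That of Ind-8 with tI-3 asks what accompanies asymmetric self-renewal among p53-expressing cells, which also differ in the IMPDH II cDNA and G418. That of tI-3 with Con-3 asks what accompanies p53 expression, the IMPDH II cDNA and G418 under symmetric self-renewal. These comparisons share arrays, so they are not independent of each other.

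The median log2 signal of all probe sets lay between 6.12 and 6.19 on the 8 arrays. Pearson correlations across probe sets ran from 0.994 to 0.996 for the 7 pairs of arrays of the same line and from 0.978 to 0.988 for the 21 pairs of different lines. One array stood apart in its controls. On Con-3 replicate 3 the 3 probe sets for 18S ribosomal RNA read 11.38, 10.97 and 9.53, against ranges of 6.59 to 7.67, 4.55 to 5.25 and 5.59 to 6.45 on the other arrays. The mean log2 signal of the 18 hybridization-control probe sets was 10.44 on that array, near the 10.24 and 10.46 of the tI-3 arrays and above the 9.94 and 10.00 of the other Con-3 arrays and the 9.95, 9.88 and 9.89 of the Ind-8 arrays. This level therefore differs between tI-3 and Ind-8 on all arrays, and line and control level cannot be told apart in that comparison. Differences of named genes from Con-3 and the limma counts of that line are given with and without its replicate 3.

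**Figure D1:**
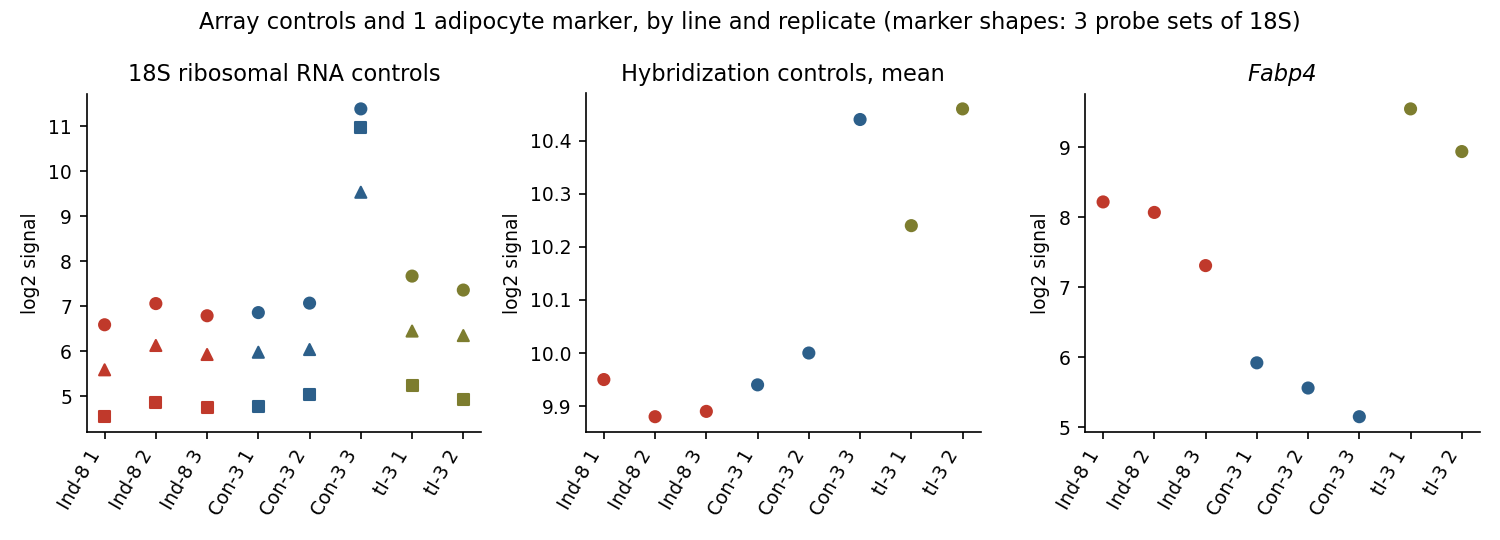
Log2 signal of the 3 probe sets for 18S ribosomal RNA, mean log2 signal of the hybridization controls, and log2 signal of the adipocyte marker Fabp4 on each of the 8 arrays, colored by line. Con-3 replicate 3 has the highest ribosomal signal, up to 11.38, and shares a high hybridization-control level with both tI-3 arrays.

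The labels were checked on genes of the p53 and IMPDH II manipulations, and the lines were compared on a zinc-responsive gene. The p53 target Cdkn1a, which encodes the inhibitor p21, averaged 9.66 in Ind-8, 5.86 in Con-3 and 7.44 in tI-3. The p53 antagonist Mdm2 averaged 10.90, 8.90 and 9.62 in the same order, and both genes passed the limma threshold (adjusted p under 0.05 over all 22523 probe sets) in each comparison, also without Con-3 replicate 3 (differences from Con-3 of 3.81 in Ind-8 and 1.59 in tI-3 for Cdkn1a became 3.89 and 1.67, and those of 2.00 and 0.72 for Mdm2 became 1.99 and 0.71). Like Rftn1, Cdkn1a and Mdm2 were chosen by the study on these arrays for their difference between Ind-8 and both other lines. Their calls in Ind-8 are therefore no independent check of the labels. Trp53 itself was higher in Ind-8 than in Con-3 by 0.53 (SE 0.087, limma adjusted p = 0.0019; 0.54 without Con-3 replicate 3). In tI-3 it was higher than in Con-3 by 0.39 (SE 0.098, limma adjusted p = 0.014; 0.40 without Con-3 replicate 3), a call that ended with the hybridization-control level as a block (0.38, adjusted p = 0.10) and without tI-3 replicate 2 (0.34, adjusted p = 0.11; 0.012 to 0.11 over the alternatives). Impdh2 averaged 12.19 in Ind-8, 12.53 in Con-3 and 12.36 in tI-3, and was called lower in Ind-8 than in Con-3 (log2 difference -0.34, limma adjusted p = 0.011; -0.34 and 0.0325 without Con-3 replicate 3). The differences of Ind-8 from tI-3 and of tI-3 from Con-3 did not pass (-0.17 each, limma adjusted p = 0.16 and 0.18). The latter was also -0.17 without Con-3 replicate 3. Over the 17 alternatives they ranged from -0.29 to -0.15 and from -0.19 to -0.07, and neither passed. The study states, from earlier work, that IMPDH II expression is higher in p53SYM than in SYM. Impdh2 signal did not show this here, as both tI-3 arrays lay below all Con-3 arrays. Whether the Impdh2 probes match the introduced cDNA is not given. Since every array came from cells in zinc, Mt1, a zinc-responsive metallothionein, can compare the lines but cannot show the response to zinc. It averaged 13.88, 13.73 and 13.62 and passed in no comparison (limma adjusted p of 0.37, 0.12 and 0.54). Its differences from Con-3 of 0.14 in Ind-8 and -0.11 in tI-3 became 0.10 and -0.16 without Con-3 replicate 3, and that of tI-3 ranged from -0.26 to 0.04 when single arrays were left out.

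The fibroblast label was checked on marker genes. All 8 of the 8 fibroblast markers (Col1a1, Col1a2, Col3a1, Pdgfra, Pdgfrb, Vim, S100a4 and Fn1) were found and none lay in the dimmest 25% of probe sets, which are those under 4.30. Vim was the most abundant at 13.89, and the log2 of their summed signal stayed between 15.28 and 15.76 on the 8 arrays. Of the epithelial markers, Epcam, Cdh1 and Krt18 lay in the dimmest 25% and Krt5 was the most abundant at 5.20, with sums between 6.42 and 6.99. Of the endothelial markers, Pecam1, Cdh5, Tek and Tie1 did so and Kdr was the most abundant at 6.15, with sums between 6.79 and 7.45. Of 4 blood markers found among 5, Ptprc and Itgam were dim and Cd3e was the most abundant at 5.45, with sums between 6.54 and 6.96. Of the striated muscle markers, Myh3 was dim and Acta1 was the most abundant at 7.21, with sums between 7.86 and 8.09. Single markers differed between the lines under these sums.

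Of the 8 fibroblast markers limma called 2 higher in Ind-8 than in Con-3 (Pdgfrb and Fn1), 5 higher in Ind-8 than in tI-3 (Col1a1, Col3a1, Pdgfra, Vim and Fn1), and between tI-3 and Con-3 2 higher (Pdgfrb and Fn1) and 3 lower (Col1a1, Col3a1 and Pdgfra). Those of Ind-8 against Con-3, at 0.38 for Pdgfrb and 0.70 for Fn1, were 0.33 (adjusted p = 0.0392) and 0.70 (adjusted p = 0.0018) without Con-3 replicate 3. Between tI-3 and Con-3 the calls of Fn1 (0.28) and Pdgfrb (0.33) ended under 12 and 7 of 17 alternatives, among them without Con-3 replicate 3 (0.28 each, adjusted p = 0.078 and 0.073) and without either tI-3 array (adjusted p of 0.093 and 0.23 for Fn1 and of 0.12 and 0.11 for Pdgfrb). Between Ind-8 and tI-3 the Vim difference of 0.39 became 0.08 (adjusted p = 0.51) with quantile normalization again, and its call also ended with the hybridization-control level as a block (0.43, adjusted p = 0.19) and without tI-3 replicate 2 (0.30, adjusted p = 0.12). That of Fn1 (0.42) ended with the block (0.42, adjusted p = 0.19) and without tI-3 replicate 1 (0.38, adjusted p = 0.0503). Col3a1, which encodes the chain of type III collagen, read 7.91, 9.32 and 9.18 in Ind-8, 8.59, 9.37 and 9.25 in Con-3, and 6.26 and 6.51 in tI-3. It fell in tI-3 against Con-3 (log2 difference -2.68, limma adjusted p = 0.00062; -2.59 without Con-3 replicate 3) and was higher in Ind-8 than in tI-3 by 2.42 (limma adjusted p = 0.0013; 2.69 and 0.0562 with the hybridization-control level as a block). Col1a1 and Pdgfra also fell in tI-3 against Con-3, with log2 differences of -1.06 (limma adjusted p = 0.0047; 0.0518 without tI-3 replicate 1) and -1.04 (limma adjusted p = 0.003), or -0.93 and -1.04 without Con-3 replicate 3. Against tI-3 they were higher in Ind-8 by 1.49 (limma adjusted p = 0.00091) and 1.51 (limma adjusted p = 0.00046). Col3a1, Col1a1 and Pdgfra were thus lowest in tI-3, the line in which the caveolins were highest and Cavin1 lowest. Another collagen gene, Col1a2, was called in no comparison, with means of 12.28 in Ind-8, 12.05 in Con-3 and 12.03 in tI-3. The receptor gene Pdgfrb averaged 9.36, 8.98 and 9.30 in the same order. The part of these marker genes in the caveolin and Cavin1 differences was not tested. Kdr was called in all 3 comparisons (log2 differences -0.32, -0.76 and 0.44, limma adjusted p = 0.0377, 0.00088 and 0.013), the first lost under 7 of 17 alternatives, among them without Con-3 replicate 3 (-0.28, adjusted p = 0.12), without Con-3 replicate 1 (0.087) and without Ind-8 replicate 1, 2 or 3 (0.0505, 0.12 and 0.086), the next lost with the block (-0.63, adjusted p = 0.096), and the last lost with the block (0.36, adjusted p = 0.14), without Con-3 replicate 2 (0.0516) and without tI-3 replicate 2 (0.12), but not without Con-3 replicate 3 (0.48, adjusted p = 0.018). Ckm and Cd3e were called higher in tI-3 than in Con-3 (0.37, limma adjusted p = 0.018, and 0.42, limma adjusted p = 0.013, or 0.42 and 0.45 without Con-3 replicate 3) and than in Ind-8, with log2 differences of Ind-8 from tI-3 of -0.44 (limma adjusted p = 0.0081) and -0.43 (limma adjusted p = 0.011). All of these calls ended with the block (adjusted p from 0.13 to 0.33). Those of Cd3e also ended without tI-3 replicate 2 (0.13 against Con-3 and 0.11 against Ind-8). Those of Ckm ended with quantile normalization again (0.26, adjusted p = 0.0644, against Con-3 and -0.27, adjusted p = 0.0562, for Ind-8) and without tI-3 replicate 1 (0.098 and 0.051), and that against Con-3 also without tI-3 replicate 2 (0.0625) and Con-3 replicate 2 (0.063). The adipocyte marker Fabp4 differed in all 3 comparisons and is given beside the caveolins.

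All 8 members had a mean over the arrays above the dim end of 4.30, and no filter on low values was applied. The order of the line means differed between the genes, also within each family, and differences between families were not tested. By mean, Ind-8 was highest for Rftn1, Flot1, Flot2 and Cavin2, and tI-3 was highest for Cav1 and Cav2. Con-3 was highest for Cavin1 and Cavin3, where its difference from Ind-8 did not pass by limma. The span of the line means exceeded the widest range of arrays within a line most clearly for Rftn1 (2.93 against 0.28) and Cavin1 (0.81 against 0.09). For Flot1 (0.49 against 0.47) and Cavin3 (0.54 against 0.46) these were nearly as large as each other, and for Cavin2 the span (0.36) was smaller than the range within a line (0.48).

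**Figure D2:**
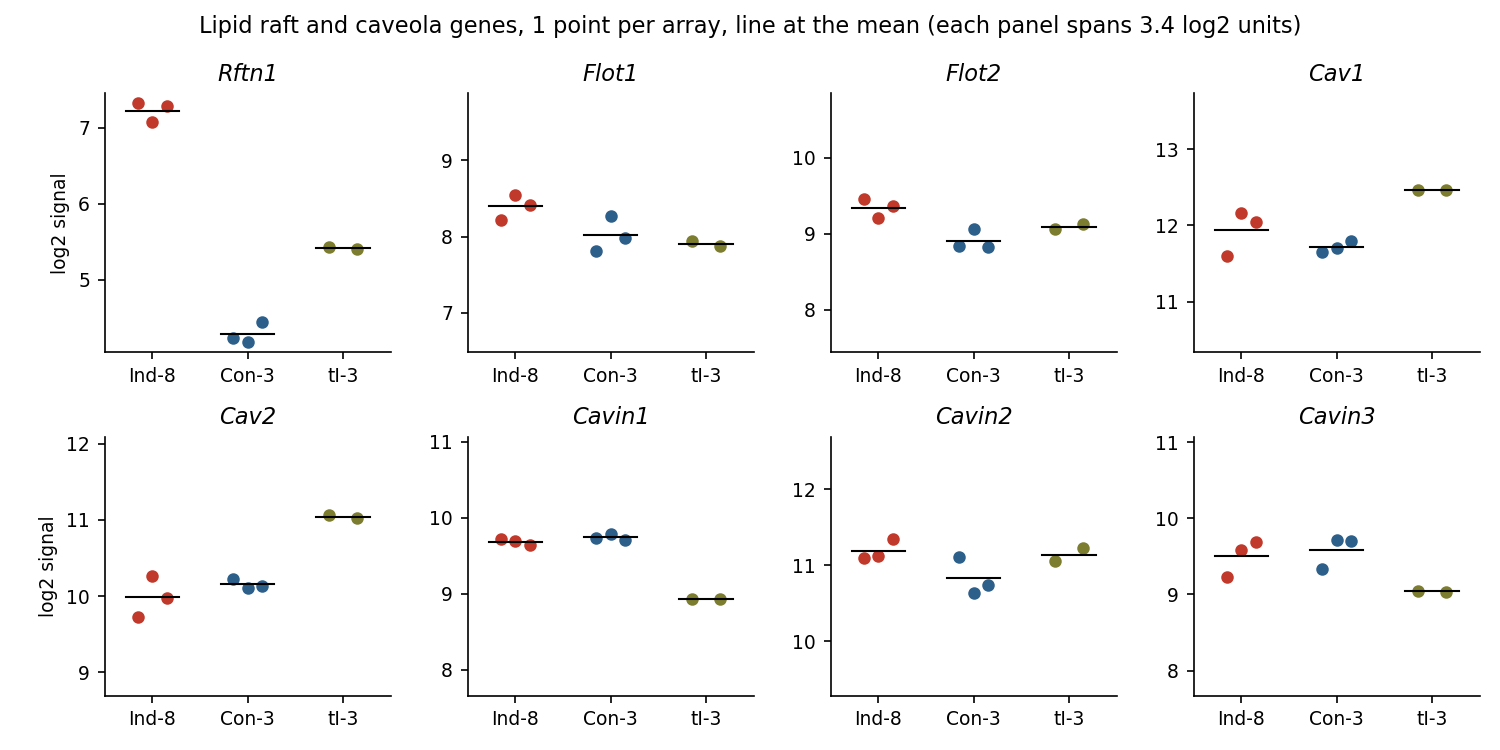
Log2 signal of the 8 raft and caveola genes on each array by line, with 1 point per array, a bar at the mean of the line and the same log2 span in every panel. Rftn1 separates all 3 lines, the caveolins are highest on the 2 tI-3 arrays, and Cavin1 and Cavin3 are lowest there.

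Rftn1 encodes raftlin. Its log2 signal was 7.32, 7.07 and 7.28 on the Ind-8 arrays, 4.24, 4.18 and 4.45 on the Con-3 arrays, and 5.43 and 5.41 on the tI-3 arrays. The Ind-8 arrays were the highest, the Con-3 arrays the lowest, and no arrays of different lines overlapped. Line means were 7.22 ± 0.13 (SD, n = 3) in Ind-8, 4.29 ± 0.15 (SD, n = 3) in Con-3 and 5.42 ± 0.014 (SD, n = 2) in tI-3. Ind-8 thus lay above Con-3 by 2.93 (7.63-fold) and above tI-3 by 1.80 (3.49-fold), and tI-3 lay above Con-3 by 1.13 (2.19-fold). The Con-3 values sit at the dim end of the arrays, so the size of the folds against Con-3 is uncertain. Signal may be compressed there and the folds understated, which was not tested. Only 0.0488% of all probe sets lay further above Con-3 in Ind-8, and 0.377% lay further above tI-3, which is what the choice of this gene rests on. Without Con-3 replicate 3, the brightest of that line, the differences from Con-3 were 3.01 for Ind-8 and 1.21 for tI-3. With the hybridization-control level as a block they were 3.01 and 0.97, and the difference between Ind-8 and tI-3 was 2.05. In RNA from whole cultures, fewer cells of a type and less RNA per cell cannot be told apart.

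The promoter of Rftn1 is shown because this gene differed most between the lines among the 8. RefSeq windows of 300 bases on the assembly GRCm38.p6 were given for 6 of the 8 members (8 windows), and none for Flot1 and Cavin3. Each was searched on both strands for motifs, and of all 32851 windows 13.6% held TATAAA, 37.4% held CCAAT, 35.7% held GGGCGG, 7.81% held TGANTCA, 8.36% held the p53 half-site and 1.63% held the CArG box. The Rftn1 window (chr17:50190448-50190747, minus strand) holds GGGCGG at 3 places, in capitals, and no other match. Its share of G and C was 70.0%, against a median of 52.7% over all windows. No member window had a match to the p53 half-site or the CArG box, which says only that these letters are not in these windows.
Rftn1: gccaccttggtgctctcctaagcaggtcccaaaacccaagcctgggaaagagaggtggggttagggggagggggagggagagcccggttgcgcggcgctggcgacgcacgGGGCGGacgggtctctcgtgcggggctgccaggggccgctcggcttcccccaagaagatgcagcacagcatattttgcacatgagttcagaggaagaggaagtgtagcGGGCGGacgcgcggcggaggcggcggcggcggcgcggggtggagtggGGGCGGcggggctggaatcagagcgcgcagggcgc

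The flotillins are paired scaffolds of the SPFH family. Flot1 read 8.22, 8.55 and 8.42 in Ind-8, 7.81, 8.27 and 7.98 in Con-3, and 7.94 and 7.87 in tI-3. All Ind-8 arrays lay above both tI-3 arrays, while 1 Con-3 array reached into the Ind-8 range. Flot2 read 9.46, 9.21 and 9.36 in Ind-8, 8.84, 9.06 and 8.83 in Con-3, and 9.06 and 9.13 in tI-3. Here every Ind-8 array lay above every array of the other lines, and the tI-3 arrays overlapped the highest of Con-3. Means were 8.39 ± 0.16 (SD, n = 3), 8.02 ± 0.24 (SD, n = 3) and 7.90 ± 0.049 (SD, n = 2) for Flot1 in Ind-8, Con-3 and tI-3. For Flot2 they were 9.34 ± 0.13 (SD, n = 3), 8.91 ± 0.13 (SD, n = 3) and 9.10 ± 0.053 (SD, n = 2).

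Against Con-3, Flot2 rose in Ind-8 by 0.43 (1.35-fold, SE 0.10, 95% interval 0.21 to 0.66, limma adjusted p = 0.012). This call held under all 17 limma alternatives with no minimum change, up to an adjusted p of 0.0455 without Con-3 replicate 3, where the difference was 0.39. Flot1 differed by 0.37 in the same direction (SE 0.13, 95% interval 0.09 to 0.66) and did not pass (limma adjusted p = 0.0648; 0.35 and 0.16 without Con-3 replicate 3), although it passed without Ind-8 replicate 1 (0.0468) and without Con-3 replicate 2 (0.022; 0.022 to 0.21 over the alternatives). Against tI-3 the order of the tests was the other way round. Flot1 rose in Ind-8 by 0.49 (1.40-fold, SE 0.15, 95% interval 0.17 to 0.81, limma adjusted p = 0.028), whereas Flot2 differed by 0.25 (95% interval -0.01 to 0.50) and did not pass (limma adjusted p = 0.12), and the difference was 0.13 with the hybridization-control level as a block (adjusted p = 0.77) and with quantile normalization again (adjusted p = 0.46). Whether the differences of Flot1 and Flot2 differed from each other was not tested. The Flot1 call ended when the arrays were quantile-normalized again (0.33, adjusted p = 0.13), with the hybridization-control level as a block (0.39), without Ind-8 replicate 2 (0.084) or 3 (0.0575), and without tI-3 replicate 1 (0.08) or 2 (0.15). Between tI-3 and Con-3 neither flotillin passed (limma log2 difference -0.12, adjusted p = 0.61 for Flot1, and 0.19, adjusted p = 0.26 for Flot2; -0.14 and 0.15 without Con-3 replicate 3). That of Flot1 ranged from -0.22 to 0.01 when single arrays were left out.

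Cav1 encodes the caveolin that is required for caveolae outside striated muscle. It read 11.60, 12.17 and 12.05 in Ind-8, 11.65, 11.70 and 11.79 in Con-3, and 12.46 and 12.47 in tI-3. Both tI-3 arrays lay above all others, and Ind-8 replicate 1 lay below every Con-3 array while the other Ind-8 arrays lay above them. Cav2 encodes the partner that assembles with caveolin-1 and needs it to reach the cell surface. It read 9.72, 10.26 and 9.98 in Ind-8, 10.22, 10.11 and 10.13 in Con-3, and 11.06 and 11.02 in tI-3. Again both tI-3 arrays lay above all others, and Ind-8 and Con-3 overlapped, with Ind-8 replicate 1 lowest. Means of Cav1 were 11.94 ± 0.30 (SD, n = 3) in Ind-8, 11.71 ± 0.072 (SD, n = 3) in Con-3 and 12.47 ± 0.0036 (SD, n = 2) in tI-3. Means of Cav2 were 9.99 ± 0.27 (SD, n = 3), 10.15 ± 0.059 (SD, n = 3) and 11.04 ± 0.032 (SD, n = 2) in the same order. The genes are neighbors on chromosome 6, with Cav2 next before Cav1 in the RefSeq table.

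In tI-3 against Con-3, Cav1 rose by 0.76 (1.69-fold, SE 0.15, 95% interval 0.42 to 1.09, limma adjusted p = 0.0048) and Cav2 by 0.88 (1.85-fold, SE 0.14, 95% interval 0.57 to 1.20, limma adjusted p = 0.0014). Only 2.44% and 1.65% of all probe sets lay further above Con-3. Without Con-3 replicate 3 the differences were 0.79 (adjusted p = 0.01) and 0.87 (adjusted p = 0.0056). With the hybridization-control level as a block, which compares tI-3 with Con-3 replicate 3 alone, the call of Cav1 ended (0.68, adjusted p = 0.0634; 0.00076 to 0.0634 over the alternatives) and that of Cav2 held (0.91, adjusted p at most 0.018 over the alternatives). In Ind-8 against tI-3, Cav2 fell by 1.05 (2.07-fold, SE 0.14, 95% interval -1.36 to -0.73, limma adjusted p = 0.00067), and 0.502% of all probe sets lay further below tI-3. Cav1 fell by 0.53 (1.44-fold, SE 0.15, 95% interval -0.86 to -0.19, limma adjusted p = 0.025). The Cav2 call ended with the control level as a block, at a difference of nearly the same size (-1.09, adjusted p = 0.0503; 0.00027 to 0.0503 over the alternatives). That of Cav1 ended with the block (-0.41, adjusted p = 0.43) and without tI-3 replicate 1 (0.09) or 2 (0.12; 0.012 to 0.43 over the alternatives), and the difference became -0.35, still called, without Ind-8 replicate 1. Between Ind-8 and Con-3 neither caveolin passed (limma log2 difference 0.23, adjusted p = 0.27 for Cav1, and -0.17, adjusted p = 0.41 for Cav2; 0.27 and -0.18 without Con-3 replicate 3). Cav1 did pass without Ind-8 replicate 1 (0.40, adjusted p = 0.022; 0.022 to 0.65 over the alternatives) and differed by 0.11 without Ind-8 replicate 2, while Cav2 differed by -0.03 and -0.30 without these arrays.

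An adipocyte marker was also highest in tI-3. Fabp4, a fatty acid binding protein, read 8.22, 8.07 and 7.31 in Ind-8, 5.92, 5.56 and 5.15 in Con-3, and 9.55 and 8.94 in tI-3. The tI-3 arrays were the highest and the Con-3 arrays the lowest, with no overlap, and Ind-8 replicate 1, lowest of its line for both caveolins, was the highest of its line. By limma it rose in tI-3 against Con-3 by 3.70 (adjusted p = 2.9e-05) and in Ind-8 against Con-3, where neither caveolin passed, by 2.32 (adjusted p = 0.00023), or by 3.51 and 2.13 without Con-3 replicate 3. In Ind-8 against tI-3 it fell by 1.38 (limma adjusted p = 0.0066), a call that ended with the control level as a block (-1.97, adjusted p = 0.0517) and without tI-3 replicate 1 (-1.08, adjusted p = 0.059; 0.00054 to 0.059 over the alternatives). Of the 5 adipocyte markers 4 were found, Fabp4 was the most abundant at 7.34, and the defining markers Adipoq, Cidec and Lep lay in the dimmest 25%. The log2 of their summed signal was 8.37, 8.23 and 7.57 in Ind-8, 6.60, 6.37 and 6.16 in Con-3, and 9.62 and 9.05 in tI-3. The part of adipocyte-like expression in the caveolin differences was not tested.

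The promoters of both caveolin genes and of Cavin1 are shown together because these 3 genes were called in tI-3 against both other lines, the caveolins higher and Cavin1 lower. Cavin3 was called there too but has no window. Capitals mark the motif matches. The Cav2 window (chr6:17280935-17281234, plus strand) holds CCAAT once, TGANTCA once and GGGCGG at 2 places that overlap. The first of 2 Cav1 windows (chr6:17306085-17306384, plus strand) holds TATAAA and GGGCGG at 2 places, all read on the other strand, and its second window, further downstream, has no match. The first of 2 Cavin1 windows (chr11:100970568-100970867, minus strand), which overlap but for 2 bases, holds CCAAT once and GGGCGG once on the other strand. CCAAT is thus in the Cav2 and Cavin1 windows and GGGCGG in all 3 windows printed here. Neither is particular to these genes, as CCAAT is also in the Flot2 and Cavin2 windows and GGGCGG in those of Flot2 and Rftn1. The share of G and C was 64.3%, 59.3% and 66.7% in the printed Cav2, Cav1 and Cavin1 windows, beside a median of 52.7%. A match describes the letters and not a bound site.
Cav2: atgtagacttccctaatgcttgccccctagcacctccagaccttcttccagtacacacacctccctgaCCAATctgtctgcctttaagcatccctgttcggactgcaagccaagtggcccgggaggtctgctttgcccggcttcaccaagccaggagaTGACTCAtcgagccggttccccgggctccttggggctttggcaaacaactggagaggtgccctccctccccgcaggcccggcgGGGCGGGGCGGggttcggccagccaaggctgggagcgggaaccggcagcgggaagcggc
Cav1: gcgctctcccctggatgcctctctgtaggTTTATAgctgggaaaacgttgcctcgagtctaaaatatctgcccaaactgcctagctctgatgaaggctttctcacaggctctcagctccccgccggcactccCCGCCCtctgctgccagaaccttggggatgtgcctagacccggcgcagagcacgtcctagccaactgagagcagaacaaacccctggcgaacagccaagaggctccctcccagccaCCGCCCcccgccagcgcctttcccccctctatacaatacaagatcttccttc
Cavin1: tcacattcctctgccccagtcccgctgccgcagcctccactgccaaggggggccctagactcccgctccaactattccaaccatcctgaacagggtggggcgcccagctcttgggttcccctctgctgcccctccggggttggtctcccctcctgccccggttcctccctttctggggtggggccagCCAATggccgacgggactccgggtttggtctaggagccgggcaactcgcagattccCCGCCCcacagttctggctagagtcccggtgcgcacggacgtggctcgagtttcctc

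Cavin1 encodes the cavin without which caveolae do not form. It read 9.72, 9.69 and 9.64 in Ind-8, 9.73, 9.79 and 9.70 in Con-3, and 8.93 and 8.93 in tI-3. Both tI-3 arrays lay below all others, and Ind-8 and Con-3 overlapped. Means were 9.68 ± 0.045 (SD, n = 3), 9.74 ± 0.046 (SD, n = 3) and 8.93 ± 0.00031 (SD, n = 2). Cavin1 fell in tI-3 against Con-3 by 0.81 (1.76-fold, SE 0.090, 95% interval -1.01 to -0.61, limma adjusted p = 0.00019). In Ind-8 against tI-3 it rose by 0.75 (1.69-fold, SE 0.090, 95% interval 0.55 to 0.95, limma adjusted p = 0.00034). These calls held under all 17 limma alternatives with no minimum change, with adjusted p up to 0.0053 against Con-3 and up to 0.0458 against tI-3. Without Con-3 replicate 3 the difference of tI-3 from Con-3 was -0.83 (adjusted p = 0.00076), and with the control level as a block it was -0.77. Ind-8 and Con-3 differed by -0.06 (95% interval -0.24 to 0.12, limma adjusted p = 0.67; -0.08 without Con-3 replicate 3), so a difference beyond 0.24 lies outside the interval. Cavin1 thus differed in the opposite direction to both caveolins in tI-3, against either other line.

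Cavin3, a protein kinase C delta binding cavin, followed the same order of lines with wider spread. It read 9.23, 9.59 and 9.69 in Ind-8, 9.33, 9.71 and 9.70 in Con-3, and 9.05 and 9.03 in tI-3. Both tI-3 arrays were the lowest, and the first replicates of Ind-8 and Con-3 were the lowest of their lines. It fell in tI-3 against Con-3 by 0.54 (1.45-fold, SE 0.16, 95% interval -0.89 to -0.19, limma adjusted p = 0.029) and rose in Ind-8 against tI-3 by 0.46 (1.38-fold, SE 0.16, 95% interval 0.11 to 0.81, limma adjusted p = 0.0472). The first call ended without Con-3 replicate 3 (-0.48, adjusted p = 0.073), without Con-3 replicate 2 (0.092), without tI-3 replicate 1 (0.10) or 2 (0.13), with quantile normalization again (0.094) and with the control level as a block (0.073; 0.011 to 0.13 over the alternatives). The call against tI-3 ended under 9 of the 17 limma alternatives, with adjusted p up to 0.23. Ind-8 and Con-3 differed by -0.08 (limma adjusted p = 0.74), which became 0.06 without Ind-8 replicate 1 and -0.02 without Con-3 replicate 3.

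Cavin2 encodes a cavin that bends membrane and is also known as serum deprivation response protein. It read 11.09, 11.12 and 11.34 in Ind-8, 11.11, 10.63 and 10.74 in Con-3, and 11.06 and 11.22 in tI-3. Con-3 replicate 1 lay among the arrays of the other lines, and the other Con-3 arrays lay below them. It passed in no comparison by limma (log2 difference 0.36, adjusted p = 0.081 for Ind-8 against Con-3; 0.05, adjusted p = 0.83 for Ind-8 against tI-3; and 0.31, adjusted p = 0.15 for tI-3 against Con-3). The differences from Con-3 were 0.32 in Ind-8 (adjusted p = 0.21) and 0.27 in tI-3 (adjusted p = 0.26) without Con-3 replicate 3. Without Con-3 replicate 1 it was called higher in Ind-8 (0.50, adjusted p = 0.015; 0.015 to 0.25 over the alternatives) and in tI-3 (0.45, adjusted p = 0.029; 0.029 to 0.49) than in Con-3. Whether the differences of the 3 cavins differed from each other was not tested.

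**Figure D3:**
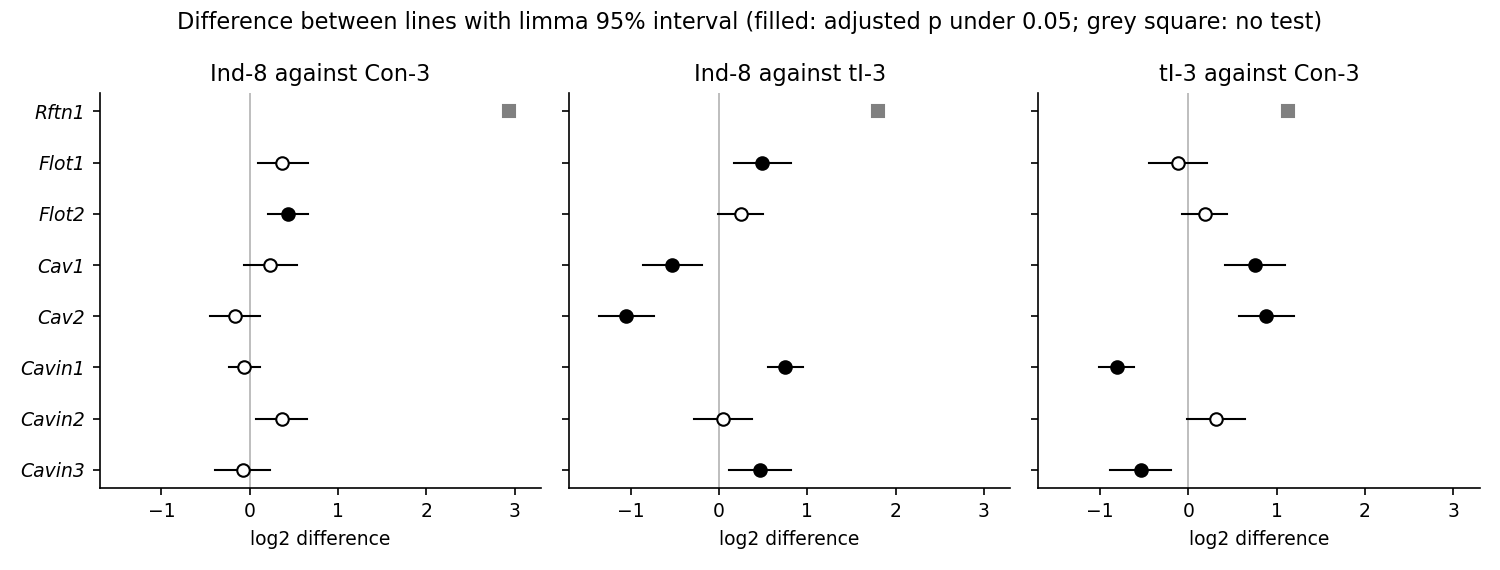
Log2 difference between lines for each gene in the 3 comparisons, with limma 95% intervals. Filled circles passed an adjusted p under 0.05, open circles did not, and grey squares mark Rftn1, which was not tested; caveolins and Cavin1 lie on opposite sides of 0 in both comparisons with tI-3.

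Counted over the 7 members other than Rftn1, limma called 1 between Ind-8 and Con-3, which was higher in Ind-8, beside 21.9% of all probe sets called, 10.9% higher and 11.0% lower. The arrays of these lines did not overlap for 1 member, beside 38.0% of all probe sets. Between Ind-8 and tI-3 limma called 5 of 7, with 3 higher and 2 lower in Ind-8, beside 31.1% of all probe sets, 15.6% higher and 15.5% lower. Here the arrays did not overlap for 6 members, beside 60.3% of all probe sets. Between tI-3 and Con-3 limma called 4 of 7, with 2 higher and 2 lower in tI-3, beside 25.4% of all probe sets, 10.2% higher and 15.1% lower. The arrays did not overlap for 4 members, beside 51.6% of all. With shares this large among all probe sets and 7 members, the counts show no more than that the members differed in both directions where tI-3 was compared. Without Con-3 replicate 3 the counts were 1, 4 and 3, beside 16.2%, 32.2% and 23.7% of all probe sets.

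The rank product test, which the methods of the study name, called 0 of the 7 members in each comparison at a percentage of false positives (pfp) under 0.05. It called 3.65% of all probe sets between Ind-8 and Con-3, 2.02% between Ind-8 and tI-3 and 2.31% between tI-3 and Con-3. At an unadjusted p under 0.05 it gave 2 members (Flot1 and Flot2), 3 (Cav1, Cav2 and Cavin1) and 4 (Cav1, Cav2, Cavin1 and Cavin3), beside 21.0%, 19.8% and 18.4% of all probe sets. At an unadjusted p under 0.05 limma gave 3, 5 and 4 members, beside 33.5%, 43.9% and 37.3%. The lowest pfp of a member was 0.0686, for Cav2 between Ind-8 and tI-3. The median log2 difference of the 7 members was 0.23, 0.25 and 0.19 in the 3 comparisons, beside -0.06, -0.06 and 0.04 for all probe sets, and the median size without sign was 0.23, 0.49 and 0.54, beside 0.16, 0.24 and 0.21. Apart from Cav2 between Ind-8 and tI-3, no called member differed by 1 or more on the log2 scale.

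With the hybridization-control level as a block, 1 member (Cavin1) was called between Ind-8 and tI-3 and 2 (Cav2 and Cavin1) between tI-3 and Con-3. The share of all probe sets called was then 3.14% and 13.6%. No control level holds both Ind-8 and tI-3 arrays, so the blocked value of that comparison rests on the difference between Con-3 replicate 3 and the other Con-3 arrays. That difference was 0.25 for Rftn1, 0.12 for Cav1, -0.04 for Cav2, -0.06 for Cavin1 and 0.18 for Cavin3.

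Other genes of rafts and caveolae were taken from 6 lists, with 59 of 60 genes found (Stoml3 was not) and 62 distinct value profiles. Together limma called 18 profiles between Ind-8 and Con-3 (29.0%, 13 higher and 5 lower), 26 between Ind-8 and tI-3 (41.9%, 20 higher and 6 lower) and 23 between tI-3 and Con-3 (37.1%, 9 higher and 14 lower), beside 21.9%, 31.1% and 25.4% of all probe sets. These shares are also the background of the counts by list. The rank product test called 5, 4 and 2 of the 62, beside 3.65%, 2.02% and 2.31% of all probe sets. Counted by gene, with a gene called where any of its profiles was, limma called 16, 24 and 22 of 59. The median log2 differences of the profiles were 0.08, 0.13 and 0.00, beside -0.06, -0.06 and 0.04 for all probe sets. Without Con-3 replicate 3 limma called 16, 27 and 22, beside 16.2%, 32.2% and 23.7% of all probe sets. With the control level as a block it called 4 between Ind-8 and tI-3 and 15 between tI-3 and Con-3, beside 3.14% and 13.6% of all probe sets.

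**Figure D4:**
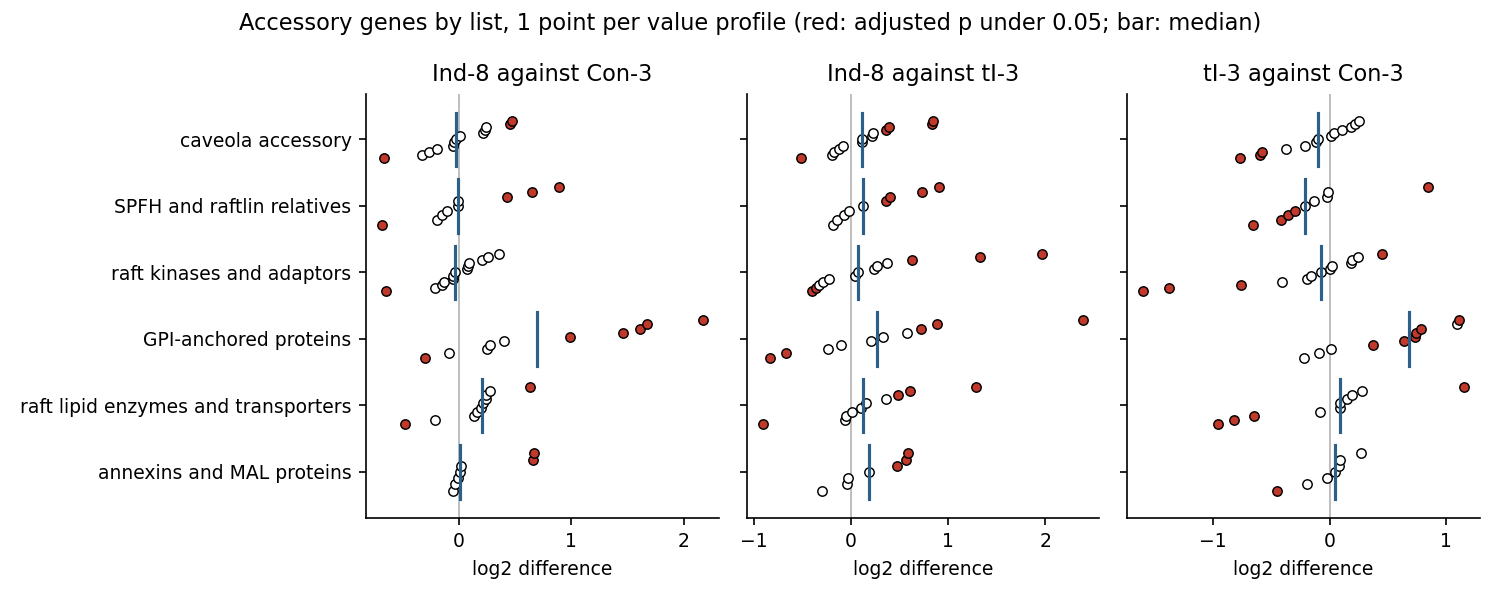
Log2 difference of each value profile of the 6 gene lists in the 3 comparisons, with red points past a limma adjusted p under 0.05 and a blue bar at the median of the list. The GPI-anchored proteins have medians of 0.69 and 0.68 in the comparisons of Ind-8 and tI-3 with Con-3.

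The caveola accessory list holds the muscle caveolin and cavin, the EHD proteins of the caveolar neck, the F-BAR proteins of the pacsin family and further partners. Of its 13 profiles limma called 3 between Ind-8 and Con-3 (2 higher, 1 lower), 5 between Ind-8 and tI-3 (4 higher, 1 lower) and 3 between tI-3 and Con-3 (all lower), with medians of -0.02, 0.11 and -0.10. By gene, with Pacsin1 once, the calls were the same and the median between Ind-8 and tI-3 was 0.17. The counts against Con-3 became 2 in Ind-8 and 4 in tI-3 without Con-3 replicate 3. Pacsin3, a membrane-bending F-BAR protein, rose in Ind-8 from 7.55 in Con-3 (log2 difference 0.46, limma adjusted p = 0.0086). Ehd3, an ATPase of endosomal traffic, fell from Con-3 to 5.44 in Ind-8 (-0.66, limma adjusted p = 0.0046) and to 5.33 in tI-3 (-0.77, limma adjusted p = 0.003; 0.0014 to 0.0573 over the alternatives, the highest with the control level as a block). Ehd4, of the same family, was higher in Ind-8 than in tI-3 by 0.83 (limma adjusted p = 0.0015) and lower in tI-3 than in Con-3 by a log2 difference of -0.60 (limma adjusted p = 0.0068; 0.073 without tI-3 replicate 2 and 0.0515 with the block). Cavin4, the cavin of muscle, averaged 7.83 in Ind-8, 7.35 in Con-3 and 6.99 in tI-3. It was called against tI-3 (0.84, limma adjusted p = 0.0051) and against Con-3 (0.47, limma adjusted p = 0.0467), the latter lost under 10 of 17 alternatives, among them leaving out Ind-8 replicate 2, any 1 Con-3 array or any 1 tI-3 array, with adjusted p up to 0.12 and differences of 0.28 without Ind-8 replicate 2 and 0.45 without Con-3 replicate 3. Cav3, the muscle caveolin, was dim at 4.06 in Ind-8 and 4.57 in tI-3, with a difference of -0.51 (limma adjusted p = 0.016). This call ended without either tI-3 replicate (0.0523 and 0.11), with quantile normalization again (-0.32, adjusted p = 0.0528) and with the block (-0.10, adjusted p = 0.78). Differences from Con-3 were 0.46 for Pacsin3 (adjusted p = 0.026), -0.76 and -0.87 for Ehd3 in Ind-8 and tI-3, and -0.59 for Ehd4 in tI-3 when Con-3 replicate 3 was left out.

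Among the relatives of flotillins and raftlin, limma called 4 of 9 profiles between Ind-8 and Con-3 (3 higher, 1 lower), 4 between Ind-8 and tI-3 (all higher) and 5 between tI-3 and Con-3 (1 higher, 4 lower), with medians of -0.01, 0.12 and -0.21. Rftn2, the paralog of Rftn1, averaged 6.65 in Ind-8, 5.76 in Con-3 and 5.74 in tI-3. It was higher in Ind-8 by 0.89 against Con-3 (limma adjusted p = 0.0029) and by 0.91 against tI-3 (limma adjusted p = 0.0043). Stom, the raft-associated stomatin, was higher than in Con-3 (8.06) in both Ind-8 (8.71, limma adjusted p = 0.0086) and tI-3 (8.89, limma adjusted p = 0.0034). Erlin1, an SPFH protein of endoplasmic reticulum rafts, was lower than in Con-3 (10.13) in both Ind-8 (9.45, limma adjusted p = 0.0011) and tI-3 (9.47, limma adjusted p = 0.002). Stoml1, a stomatin-like protein, was higher in Ind-8 than in tI-3 by 0.73 (limma adjusted p = 0.00073). Phb2, a prohibitin of the inner mitochondrial membrane, was lower in tI-3 than in Con-3 (11.12 against 11.53, limma adjusted p = 0.012; 0.10 without tI-3 replicate 2). Leaving out Con-3 replicate 3, limma called 4 of the 9 in each line against Con-3. The differences in Ind-8 were then 0.75 for Rftn2 (adjusted p = 0.012), 0.61 for Stom (adjusted p = 0.0351) and -0.66 for Erlin1 (adjusted p = 0.0059), and in tI-3 0.79 for Stom (adjusted p = 0.013), -0.64 for Erlin1 (adjusted p = 0.0075) and -0.39 for Phb2 (adjusted p = 0.0339).

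Among raft kinases and adaptors limma called 1 of 13 profiles between Ind-8 and Con-3 (lower), 5 between Ind-8 and tI-3 (3 higher, 2 lower) and 4 between tI-3 and Con-3 (1 higher, 3 lower), with medians of -0.03, 0.07 and -0.07. Fyn, a palmitoylated Src-family kinase that associates with caveolin-1, averaged 9.98 in Ind-8 and 10.03 in Con-3 but 8.65 in tI-3. Its difference was 1.33 between Ind-8 and tI-3 (limma adjusted p = 8.5e-05) and -1.38 between tI-3 and Con-3 (limma adjusted p = 6.3e-05). Fyn was also called by the rank product test in these comparisons. Cbl, a ubiquitin ligase of receptor signaling, was lower in Ind-8 than in Con-3 (6.26 against 6.90, limma adjusted p = 0.02; 0.0663 without Ind-8 replicate 1 and 0.0585 without Con-3 replicate 1). The transmembrane adaptors Pag1 and Lat were lower in Ind-8 than in tI-3 by log2 differences of -0.40 (limma adjusted p = 0.017; -0.27 and 0.16 without tI-3 replicate 2, -0.24 and 0.12 with quantile normalization again, and -0.46 and 0.20 with the block) and -0.36 (limma adjusted p = 0.0486). The Lat call ended under 7 of 17 alternatives, with adjusted p up to 0.83, among them leaving out Ind-8 replicate 1 or 2, Con-3 replicate 2 or either tI-3 replicate. Lat was also higher in tI-3 than in Con-3 by 0.45 (limma adjusted p = 0.023; 0.0638 and 0.0608 without Con-3 replicates 1 and 2, and 0.17 without tI-3 replicate 2), and by 0.28 with the block (adjusted p = 0.27). The counts against Con-3 stayed at 1 and 4 without Con-3 replicate 3, and the differences from Con-3 were then -0.68 for Cbl (adjusted p = 0.0452), -1.42 for Fyn (adjusted p = 0.00029) and 0.54 for Lat (adjusted p = 0.013).

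GPI-anchored proteins partition into rafts through their lipid anchor. Of 10 profiles limma called 6 between Ind-8 and Con-3 (5 higher, 1 lower), 5 between Ind-8 and tI-3 (3 higher, 2 lower) and 6 between tI-3 and Con-3 (all higher), with medians of 0.69, 0.27 and 0.68. Cd59a gives 2 of the 10 profiles, both called higher in the first-named line of each comparison. Counted by gene, the calls are 5 (4 higher), 4 (2 higher) and 5 of 9, and the medians of 0.40, 0.21 and 0.64 rest on 9 genes. Once Con-3 replicate 3 was left out, limma called 5 profiles in each line against Con-3, all higher, with medians of 0.63 and 0.58, or 0.33 and 0.52 by gene. Ly6e averaged 10.22 in Ind-8, 8.05 in Con-3 and 7.83 in tI-3, with differences of 2.17 from Con-3 (limma adjusted p = 1.3e-06) and 2.39 from tI-3 (limma adjusted p = 2.7e-06), and the rank product test called both. Ly6a, the stem cell antigen Sca-1, rose from 10.09 in Con-3 to 11.76 in Ind-8 (1.67, SE 0.34, limma adjusted p = 0.0066), and the rank product test called it as well. In its brighter profile Cd59a, a complement inhibitor, averaged 7.41 in Ind-8, 5.80 in Con-3 and 6.53 in tI-3. That profile was higher in Ind-8 than in tI-3 by 0.88 (limma adjusted p = 0.00061). It was also called higher in Ind-8 than in Con-3 (limma adjusted p = 1.1e-05), as by the rank product test. Prnp, the prion protein, was higher than in Con-3 (10.75) in both Ind-8 (11.74, limma adjusted p = 0.00062) and tI-3 (11.53, limma adjusted p = 0.0033). The rank product test called it in Ind-8 against Con-3. Gfra1, a co-receptor for glial cell line-derived neurotrophic factor, averaged 4.56 in Ind-8 and 4.28 in Con-3. In tI-3 it was called higher than in Con-3 (1.11, limma adjusted p = 0.00073) and than in Ind-8 (difference of Ind-8 from tI-3 -0.83, limma adjusted p = 0.0041). The value against Con-3 is uncertain in size because Con-3 lies at the dim end. Thy1 was dim in Ind-8 at 3.88 and in Con-3 at 4.19, and its difference from Con-3 of -0.30 (limma adjusted p = 0.0448) ended under 11 of 16 alternatives, the omission of any 1 array among them, with adjusted p up to 0.15. Its difference from tI-3 was -0.67 (limma adjusted p = 0.0016). With Con-3 replicate 3 left out, the differences from Con-3 were 2.25 for Ly6e, 1.69 for Ly6a (adjusted p = 0.023) and -0.24 for Thy1 (adjusted p = 0.15) in Ind-8, and 0.73 for Prnp (adjusted p = 0.012) and 1.15 for Gfra1 (adjusted p = 0.0026) in tI-3.

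Among the enzymes and transporters of raft lipids limma called 2 of 10 profiles between Ind-8 and Con-3 (1 higher, 1 lower), 4 between Ind-8 and tI-3 (3 higher, 1 lower) and 4 between tI-3 and Con-3 (1 higher, 3 lower), with medians of 0.21, 0.13 and 0.09. B4galnt1, which makes complex gangliosides, averaged 6.80 in Ind-8, 6.17 in Con-3 and 5.52 in tI-3. It was higher in Ind-8 by 0.63 against Con-3 (limma adjusted p = 0.0049) and by 1.29 against tI-3 (limma adjusted p = 0.00018). Ugcg, which makes glucosylceramide, fell from 9.40 in Con-3 to 8.92 in Ind-8 (-0.48, limma adjusted p = 0.0042) and to 8.44 in tI-3 (-0.96, limma adjusted p = 0.00014). Sgms1, a sphingomyelin synthase, was lower in tI-3 (7.80) than in Con-3 (8.62, limma adjusted p = 0.0028; 0.0521 with the block) and in Ind-8 (8.41, limma adjusted p = 0.012; 0.091 without tI-3 replicate 2). Npc1, which exports cholesterol from lysosomes, was higher in tI-3 (7.02) than in Con-3 (5.87, limma adjusted p = 0.0003) and in Ind-8 (6.11, limma adjusted p = 0.0013). Against Con-3, tI-3 thus had more signal of Npc1 and less of Ugcg, Sgms1 and B4galnt1 (limma adjusted p = 0.0061 for the last). Without Con-3 replicate 3 the differences of Npc1, Ugcg and Sgms1 were 1.21, -0.99 and -0.90. Those of Ind-8 were then 0.60 for B4galnt1 (limma adjusted p = 0.021) and -0.51 for Ugcg (limma adjusted p = 0.0095). The counts against Con-3 stayed at 2 and 4.

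Of the 7 profiles of annexins and MAL proteins limma called 2 between Ind-8 and Con-3 (both higher), 3 between Ind-8 and tI-3 (all higher) and 1 between tI-3 and Con-3 (lower), with medians of 0.01, 0.18 and 0.05. Anxa6 gives 2 of these profiles, so the calls are of 1, 2 and 1 of 6 genes, with medians by gene of 0.00, 0.07 and 0.01. Anxa6, an annexin of cholesterol-rich membrane, averaged 10.15 in Ind-8, 9.49 in Con-3 and 9.57 in tI-3, and was higher in Ind-8 in both comparisons (0.67, limma adjusted p = 0.0013, and 0.59, limma adjusted p = 0.0043). Anxa1 was lower in tI-3 (12.89) than in Ind-8 (13.36, limma adjusted p = 0.0086; 0.091 without tI-3 replicate 2) and in Con-3 (13.35, limma adjusted p = 0.01; 0.11 without tI-3 replicate 2, 0.078 with quantile normalization again, where the difference of -0.45 became -0.29, and 0.10 with the block). The counts of 2 and 1 against Con-3 held when its replicate 3 was left out, and the differences from Con-3 were 0.68 for Anxa6 in Ind-8 (adjusted p = 0.0055) and -0.48 for Anxa1 in tI-3 (adjusted p = 0.019). Of the list genes named here for Ind-8 against tI-3, Fyn, Ly6e and B4galnt1 were called with the control level as a block, and the others were not. The block moved the differences of Rftn2 (to 0.50) and Sgms1 (to 0.35) by over 1.5 times, as it did those of Cav3 and Lat (to -0.10 each).

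The genes whose values were most like those of Rftn1 across the 8 arrays were sought among 962 genes whose line means spanned at least 1 on the log2 scale. They were Cdkn1a (r = 0.997), Phlda3 (0.994), Bax (0.993), H13 (0.993) and Eda2r (0.988). Each was highest in Ind-8, intermediate in tI-3 and lowest in Con-3, as with means of 7.75, 5.38 and 4.02 for Eda2r and 10.94, 9.72 and 9.21 for Phlda3. For Cav1 they were Il6st (r = 0.985), Ssbp2 (0.956), Pdlim5 (0.938), Ccl7 (0.927) and Mme (0.927), each highest in tI-3. Il6st, for example, read 7.92, 8.72 and 8.69 in Ind-8, 8.12, 8.25 and 8.42 in Con-3, and 9.36 and 9.38 in tI-3, with the low first Ind-8 array that Cav1 also had. The points of these correlations are 8 arrays of 3 lines, so they describe the order of the lines and of single arrays. The study chose Cdkn1a and Eda2r on these arrays by the same rule as Rftn1, so their likeness follows partly from that choice.

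**Figure D5:**
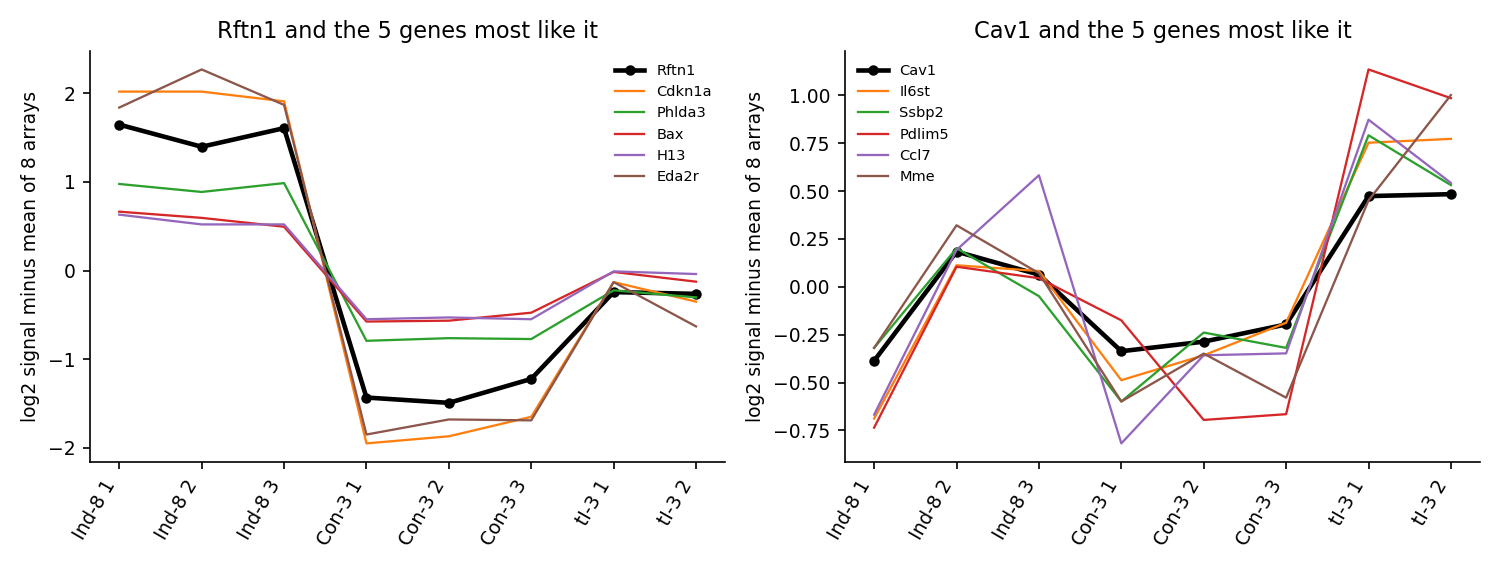
Log2 signal of Rftn1 and Cav1 (black) and of the 5 genes most like each (colors) on the 8 arrays, as the difference from the mean of the gene. Genes like Rftn1 follow the order Ind-8, tI-3, Con-3, and genes like Cav1 are highest on the tI-3 arrays.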

How the data were processed

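Expression was measured on 8 Affymetrix mouse arrays, 3 of Ind-8, 3 of Con-3 and 2 of tI-3. The deposited values are RMA log2 signals, for which the authors grouped the probes by RefSeq transcript, and no further normalization was applied. The 64 control probe sets were set aside, leaving 22523, of which 81.2% were named from a RefSeq table of GRCm38.p6. A model with 1 mean per line was fitted across all arrays in limma (version 3.58.1, R 4.3.3), and p was adjusted by Benjamini and Hochberg over every probe set tested. The rank product test was re-implemented with 100 permutations and a pfp under 0.05, and both were tested on simulated data. Python 3.11.15, numpy 2.4.6, scipy 1.17.1, pandas 2.3.3 and matplotlib 3.10.9 were used. The members and lists were chosen with earlier results of these data known. Named from each list were up to 2 genes with the largest rise and 2 with the largest fall past the threshold in each comparison, and the marker genes described singly were chosen after their values were seen. Not every gene that this rule names is reported. Alternatives were other normalizations, filters and limma settings, blocks for the replicate number and the hybridization-control level, a minimum log2 difference of 1, a pfp under 0.01, another seed, and the omission of each array.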

Additional observations from a re-analysis of the deposited data

How the results depend on the processing

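Counts are of members other than Rftn1, and then of list profiles, by limma unless the rank product is named, and percentages are of all probe sets under the same setting. Between Ind-8 and Con-3 the member count of 1 (21.9%) became 0 with a minimum log2 difference of 1 (2.06%) and 1 to 3 when single arrays were left out (15.5% to 20.6%). Between Ind-8 and tI-3 the count of 5 (31.1%) became 3 with quantile normalization again (25.5%), 1 with the hybridization-control level as a block (3.14%), 1 with the minimum difference (3.02%), and 2 to 5 without single arrays (12.3% to 32.2%), with 2 without tI-3 replicate 1 (21.8%) or 2 (12.3%). Between tI-3 and Con-3 the count of 4 (25.4%) became 2 with that block (13.6%), 0 with the minimum difference (3.26%), and 3 to 5 without single arrays (13.7% to 25%). Counts of all probe sets thus fell under most of these settings as well. The rank product count of 0 (2.02%) became 1 between Ind-8 and tI-3 with quantile normalization again (2.22%). The list counts of 18, 26 and 23 became 4, 4 and 4 with the minimum difference, 4 and 15 in the comparisons with tI-3 under the control-level block, and 16 to 18, 18 to 27 and 14 to 23 without single arrays. Where 1 tI-3 array was left, it was assumed to vary like the other lines.

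Replicate numbers were also entered as a block. The member counts were then 2, 5 and 4, beside 23.9%, 37.0% and 28.3% of all probe sets (Flot1 was added between Ind-8 and Con-3, adjusted p = 0.0416) and the list counts 19, 27 and 23. Deviations from the line means correlated across probe sets between arrays of the same number at 0.27, 0.03 and 0.38 for Ind-8 and Con-3, at 0.01 and -0.23 for Ind-8 and tI-3, and at 0.20 and 0.04 for tI-3 and Con-3, so the numbers were not treated as pairs.

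The sign turned for differences that had not passed. Cavin3 between Ind-8 and Con-3 became 0.06 without Ind-8 replicate 1 (-0.20 to 0.06 without single arrays). Cavin2 between Ind-8 and tI-3 became -0.06 with quantile normalization again, -0.08 with the control-level block, and -0.03 without Ind-8 replicate 3 and also without tI-3 replicate 1 (-0.03 to 0.13). Flot1 between tI-3 and Con-3 became 0.01 with quantile normalization again and 0.01 without Con-3 replicate 2 (-0.22 to 0.01). Mt1 became -0.09 between Ind-8 and tI-3 and 0.20 between tI-3 and Con-3 with quantile normalization again, and 0.04 in the latter without tI-3 replicate 2 (-0.26 to 0.04). Apart from the construction of the minimum difference and of fewer arrays, the cause was not tested. Signal near background limits Rftn1 and Gfra1 in Con-3, Cav3 and Thy1.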
